A study of Mus musculus with 15 samples.

Results

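Nrsn2, Fam131c, Fxyd7, Tmem91, Klk8, Slc6a7, Fam19a1 and Sla are 8 protein-coding genes of the 24498 in the deposited count table. They were picked because their counts were much higher with acetate in primary mouse hippocampal neurons, in cultures without or with an inhibitor of ACSS2, or in both. No numeric limit went with the choice, and it took neither all genes with the highest folds nor only those. Their acetate folds therefore describe how they were chosen and carry no test here. All 8 passed edgeR's default filter on low counts, as did 15075 genes in all.

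The cultures came as plated primary neurons in neurobasal medium with GlutaMAX and B27, and strain, genotype and age of the donor mice are not given in the labels. After 7 days of differentiation they were treated for 24 h. DMSO vehicle (4 libraries) received the medium vehicle and the solvent DMSO, and DMSO acetate (4) received 5 mM acetate and DMSO. Inhibitor vehicle (3) received 20 µM of the ACSS2 inhibitor with the medium vehicle, and inhibitor acetate (4) received that inhibitor with 5 mM acetate. Per the protocol, DMSO in medium was the vehicle of the inhibitor. The question of the design is which genes respond to acetate, a product of alcohol breakdown, and whether ACSS2, the enzyme that turns acetate into acetyl-CoA, is needed.

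Cultures of hippocampal neurons hold excitatory and inhibitory neurons together with some glia, and neurons mature in them by extending processes and forming synapses. The 8 genes encode proteins of several neuronal compartments. Nrsn2 (neurensin-2) sits in membranes of small neuronal vesicles, and Fxyd7 is a brain subunit that modulates the sodium-potassium pump. Tmem91 belongs to the SynDIG family of membrane proteins, whose founding member is known from AMPA-type glutamate receptor synapses. Slc6a7 is the high-affinity proline transporter of glutamatergic nerve terminals. Klk8 (neuropsin) is a secreted serine protease that cuts proteins around hippocampal synapses, and Fam19a1 (Tafa1) is a small secreted protein of a family whose members can bind neurexins. Sla (Src-like adaptor protein) docks to activated tyrosine kinase pathways, is best known from lymphocytes, and recruits the ubiquitin ligase Cbl. Fam131c belongs to a family whose function is little described.

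The RefSeq promoter table (GRCm38.p6, 250 bases before to 50 after a start site) held 5 of the 8 genes, Nrsn2, Fam131c, Tmem91, Klk8 and Fam19a1. The 3 printed here show the spread among these promoters: Nrsn2 has the highest acetate fold of the 8 genes, Fam131c has the promoter richest in G and C of the 5, and Fam19a1 the poorest. Each runs 5′ to 3′ from base -250 to base -36 before the RefSeq start site, at chr2:152376641-152376855 (minus strand), chr4:141367942-141368156 (plus) and chr6:96112904-96113118 (plus). Capitals mark GC-box letters (GGGCGG on either strand) and AP-1 letters (TGANTCA).
Nrsn2: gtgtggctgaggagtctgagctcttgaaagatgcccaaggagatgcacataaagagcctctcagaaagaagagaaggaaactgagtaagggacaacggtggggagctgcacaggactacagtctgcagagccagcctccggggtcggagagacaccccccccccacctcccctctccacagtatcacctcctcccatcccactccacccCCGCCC
Fam131c: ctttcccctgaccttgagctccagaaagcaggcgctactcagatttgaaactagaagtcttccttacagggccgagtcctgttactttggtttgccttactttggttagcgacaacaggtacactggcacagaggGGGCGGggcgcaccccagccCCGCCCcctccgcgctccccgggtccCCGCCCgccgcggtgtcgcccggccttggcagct
Fam19a1: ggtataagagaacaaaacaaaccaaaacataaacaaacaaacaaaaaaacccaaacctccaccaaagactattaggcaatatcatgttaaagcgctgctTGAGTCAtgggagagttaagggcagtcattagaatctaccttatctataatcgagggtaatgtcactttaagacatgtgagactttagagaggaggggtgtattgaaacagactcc

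A GC box, the letters bound by Sp1-type factors, was found in 4 of the 5 promoter windows of 300 bases, in all but Fam19a1. It occurs in 35.7% of the 32851 windows in the table. Fam131c held it 3 times, at positions -115, -95 and -69, and Nrsn2 once, at -41. Fam19a1 had instead an AP-1 match at -151, letters present in 7.81% of all windows. G and C made up 60.3% of the Nrsn2 window, 68.3% of Fam131c, 55.3% of Tmem91, 65.3% of Klk8 and 42.0% of Fam19a1, against a median of 52.7%. The E-box letters CAGCTG stood once in Fam131c (16.3% of all windows). The cAMP response element TGACGTCA (1.79% of windows), its first bases TGACG (20.8%), TATAAA (13.6%), CACGTG (7.15%) and CCAAT (37.4%) were in 0 of the 5. All motifs were searched on both strands, TGACGTCA contains TGACG, and a match is only a match of letters.

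Libraries held 19688231 to 39234799 counts on genes, with a median of 22722121, so that 1 count was worth 0.0277 to 0.0541 CPM, that is, counts scaled to a common library size. TMM, a correction for library composition, entered that scale. The cultures carried neuronal RNA throughout: the mean log2 CPM of 14 pan-neuronal markers was 8.07 to 8.97. The mean over markers of astrocytes, oligodendrocyte lineage, microglia, vessel cells and meninges was 5.07 to 5.29 in 3 DMSO vehicle libraries and 4.78 and 5.08 in 2 inhibitor vehicle libraries. DMSO vehicle 1 stood apart at 3.96 and inhibitor vehicle 2 at 2.52, the latter inside the 2.51 to 2.92 of the 8 acetate libraries. Microglia markers set them apart most: C1qb was at 24 CPM in DMSO vehicle 1 and 114 to 123 CPM in the rest of DMSO vehicle, and at 0.82 CPM in inhibitor vehicle 2 against 91.5 and 98.5 CPM. Xist, made from the inactive X chromosome of female cells, was at 60.9 to 74.9 CPM in the 7 vehicle libraries and 117 to 160 CPM in the 8 acetate libraries. The Y-linked Eif2s3y was at 14 to 20.7 CPM with vehicle and 9.74 to 11.9 CPM with acetate. Ddx3y did not overlap either (20.4 to 36.2 and 13.6 to 20.1 CPM), while Kdm5d (3.42 to 7.5 and 2.11 to 4.35 CPM) and Uty (1.61 to 3.91 and 1.14 to 2.92 CPM) did. The labels do not say whether acetate and vehicle libraries came from the same culture preparation, and a difference of preparation or cell mix cannot be told apart from acetate in any acetate fold below. In bulk RNA, fewer cells of a type and less RNA per cell cannot be told apart either.

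Levels of the 8 genes ranged widely. Per kilobase of exon, DMSO acetate libraries averaged 142 CPM for Fxyd7, 52.4 for Slc6a7, 39.5 for Fam131c, 12.8 for Klk8, 6.29 for Nrsn2, 2.31 for Tmem91, 1.59 for Fam19a1 and 1.42 for Sla. In DMSO vehicle the order was the same for the first 5, from 25.2 CPM per kilobase for Fxyd7 to 0.975 for Nrsn2, and Sla (0.673) then stood above Tmem91 (0.462) and Fam19a1 (0.36). The lowest raw values were the 19 counts of Fam19a1 and 31 of Tmem91 in a vehicle library, so every gene was counted in every library.

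**Figure D1:**
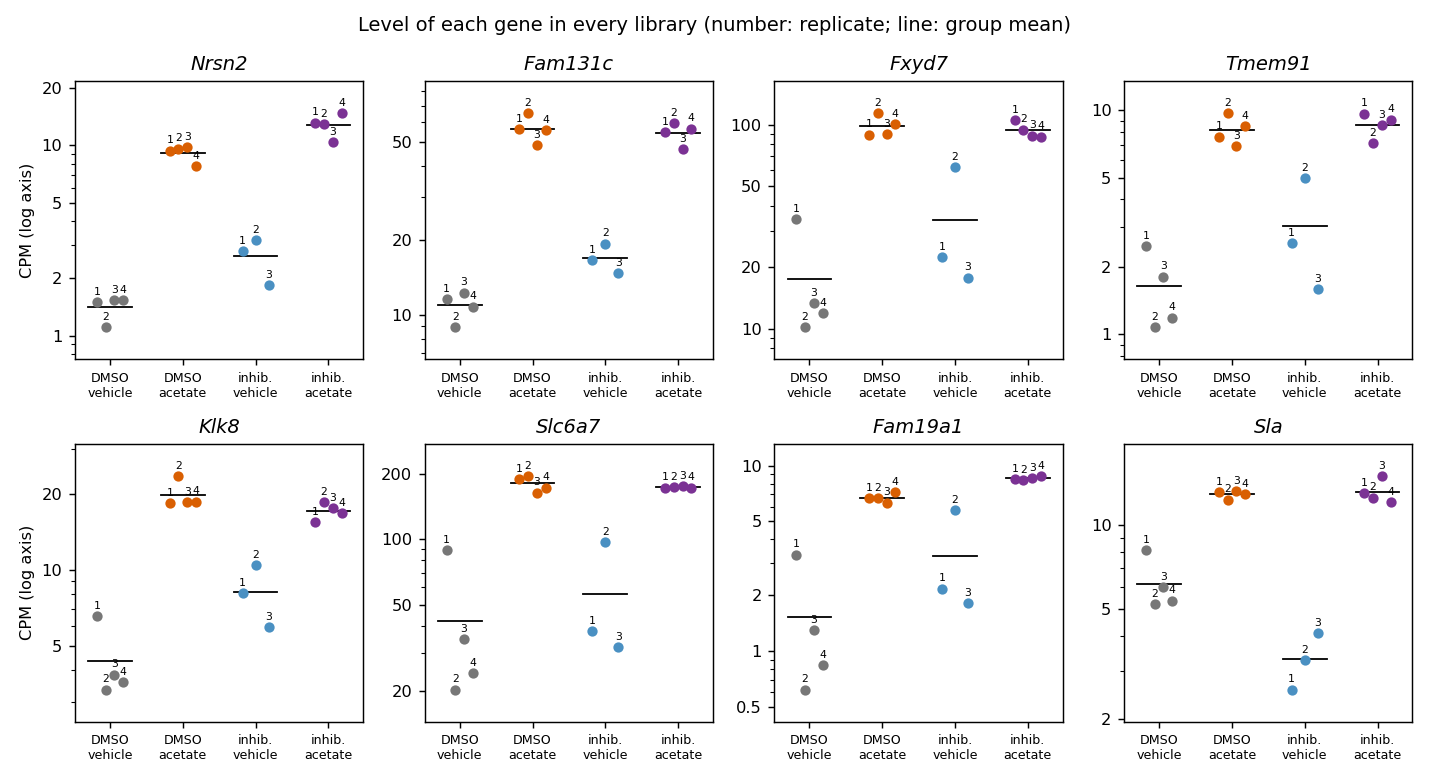
TMM-scaled CPM (log axis) of the 8 genes in every library, 1 panel per gene, with the replicate number at each point and the group mean as a line. Every acetate library lies above every vehicle library of its arm. Replicate 1 of DMSO vehicle and replicate 2 of inhibitor vehicle are high in Fxyd7, Slc6a7 and Fam19a1 and stand out less in Nrsn2 and Fam131c.

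Nrsn2 was the gene with the greatest acetate difference of the 8. It was at 1.5, 1.11, 1.53 and 1.53 CPM in DMSO vehicle 1 to 4 and at 9.40, 9.64, 9.79 and 7.78 CPM in DMSO acetate 1 to 4. With the inhibitor it was at 2.78, 3.19 and 1.85 CPM in vehicle and 13.2, 13.0, 10.4 and 14.8 CPM with acetate. The vehicle libraries were all low, at 1.11 to 3.19 CPM, and the 4 groups did not overlap at any point. The log2 fold was 2.69 (SE 0.18) in the DMSO arm, the 4th highest of 15075 genes, and 2.31 (SE 0.19) in the inhibitor arm, the 3rd highest.

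Fam131c had a similar shape at a higher level. Its CPM values were 11.6, 8.93, 12.3 and 10.8 in DMSO vehicle and 56.5, 65.4, 48.5 and 56.0 in DMSO acetate. They were 16.7, 19.4 and 14.7 in inhibitor vehicle and 54.6, 59.6, 46.8 and 56.6 in inhibitor acetate. The acetate groups of both arms overlapped, and the arms differed in vehicle, where the highest DMSO library was below the lowest inhibitor library. The log2 fold was accordingly 2.38 (SE 0.12) in the DMSO arm and 1.69 (SE 0.13) in the inhibitor arm.

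Fxyd7, the pump subunit, had the highest level per length and a wide spread in vehicle. It was at 34.6, 10.2, 13.3 and 11.9 CPM in DMSO vehicle, at 89.5, 114, 90.2 and 101 CPM in DMSO acetate, at 22.4, 61.8 and 17.8 CPM in inhibitor vehicle, and at 105, 94.7, 88.4 and 87.4 CPM in inhibitor acetate. DMSO vehicle 1 had 2.93 times the mean of the rest of its group, and inhibitor vehicle 2 had 3.07 times. These are the vehicle libraries low in non-neuronal markers. The log2 folds were 2.49 (SE 0.39) and 1.47 (SE 0.42), and without those libraries 3.07 and 2.23.

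Slc6a7, the proline transporter, had the same shape. It was at 88.9, 20.3, 34.7 and 24.2 CPM in DMSO vehicle and reached 190, 196, 164 and 173 CPM with acetate. With the inhibitor it was at 37.8, 97.3 and 32.0 CPM in vehicle, and the 4 acetate libraries lay within 173 to 175 CPM, at a coefficient of variation of 0.444%. The spread of Slc6a7 was thus almost all in vehicle, at an SD of 31.9 and 36.1 CPM against 14.6 and 0.77 CPM with acetate. The inhibitor acetate libraries held 3765 to 3973 counts of it. Counting alone gives on average a wider spread than 0.444% there, so that closeness is not read as a trait of the gene. The log2 folds were 2.10 (SE 0.41) in the DMSO arm and 1.64 (SE 0.44) in the inhibitor arm.

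Of the secreted proteins, Fam19a1 was rare and Klk8 moderate. Fam19a1 was at 3.31, 0.619, 1.30 and 0.842 CPM in DMSO vehicle and, with acetate, at 6.66, 6.67, 6.32 and 7.19, at 2.17, 5.74 and 1.82 in inhibitor vehicle, and at 8.49, 8.36, 8.58 and 8.82 in inhibitor acetate. The high vehicle libraries were again DMSO vehicle 1, 3.6 times the mean of the others, and inhibitor vehicle 2, 2.88 times. Its log2 folds were 2.15 (SE 0.43) and 1.41 (SE 0.45). Klk8 was at 6.58, 3.36, 3.85 and 3.60 CPM in DMSO vehicle and, with acetate, at 18.3, 23.5, 18.5 and 18.6, at 8.08, 10.4 and 5.94 in inhibitor vehicle, and at 15.4, 18.5, 17.5 and 16.7 in inhibitor acetate. Klk8 therefore had a higher floor and a slightly lower ceiling with the inhibitor, and its log2 fold was 2.18 (SE 0.21) in the DMSO arm and 1.07 (SE 0.22) in the inhibitor arm.

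Tmem91 was at 2.48, 1.08, 1.81 and 1.19 CPM in DMSO vehicle and at 7.63, 9.71, 6.93 and 8.49 CPM in DMSO acetate. With the inhibitor it was at 2.56, 4.97 and 1.59 CPM in vehicle and at 9.66, 7.16, 8.58 and 9.09 CPM with acetate. The same vehicle libraries were the high ones, by 1.83 and 2.39 times. Its log2 folds were 2.33 (SE 0.31) and 1.51 (SE 0.33).

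Sla went the other way between the arms. It was at 8.16, 5.21, 5.98 and 5.36 CPM in DMSO vehicle and 13.2, 12.4, 13.3 and 13.0 CPM in DMSO acetate. It was at 2.56, 3.28 and 4.08 CPM in inhibitor vehicle and at 13.1, 12.6, 15.1 and 12.1 CPM in inhibitor acetate. The acetate groups overlapped while the vehicle groups did not, with inhibitor vehicle the lower. Its log2 fold was 1.07 (SE 0.15) in the DMSO arm, rank 262, and 1.99 (SE 0.18) in the inhibitor arm, rank 8. Sla was at the middle of its group in inhibitor vehicle 2, at 0.987 times the others, where the microglia marker mean was -0.96 log2 CPM against 4.22 and 4.57 in the other libraries.

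Over the 8 genes the median log2 fold was 2.25 in the DMSO arm and 1.58 in the inhibitor arm, against -0.03 over all tested genes in each. Acetate and vehicle libraries did not overlap for 8 of 8 genes in either arm. In the background, 22.1% of all genes had higher acetate libraries with no overlap in the DMSO arm and 16.4% in the inhibitor arm, and 23.3% and 16.4% had lower ones. At a Benjamini-Hochberg adjusted p under 0.05, 51.2% of all genes were called in the DMSO arm (23.7% rose and 27.5% fell) and 35% in the inhibitor arm (14.5% rose and 20.6% fell). The choice of the genes fixes this count, so nothing is read from it. A log2 fold above 2 was reached by 24 genes in the DMSO arm, 7 of them among the 8, and by 7 genes in the inhibitor arm, of which only Nrsn2 is among the 8. The fold was smaller with the inhibitor for 7 of the 8 genes, by 0.39 (Nrsn2) to 1.11 (Klk8) on the log2 scale, and larger for Sla, by 0.92. These differences involve the contrasts the genes were chosen on and were not tested.

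Pan-neuronal markers also rose with acetate, which sets a second baseline for neuronal genes. Of 14, 12 rose in the DMSO arm and 11 in the inhibitor arm (edgeR, adjusted p under 0.05), with median log2 folds of 0.67 and 0.50. Taken relative to the mean of these markers in the same library, the difference with acetate on the log2 scale was 1.51 to 1.97 in the DMSO arm for all but Sla, which was at 0.39. In the inhibitor arm it was 1.78 for Nrsn2, 1.47 for Sla, 1.31 for Slc6a7, 1.05 to 1.17 for Fam131c, Fxyd7, Tmem91 and Fam19a1, and 0.57 for Klk8. The 8 genes were chosen for large acetate folds, so nothing is read from their being above the average marker. Single pan-neuronal markers had log2 folds of up to 1.19 and 1.02 in the 2 arms, against 1.07 for Sla in the DMSO arm and 1.07 for Klk8 in the inhibitor arm. Markers of excitatory neurons in place of pan-neuronal markers gave 0.49 for Sla in the DMSO arm and 0.50 for Klk8 in the inhibitor arm.

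**Figure D2:**
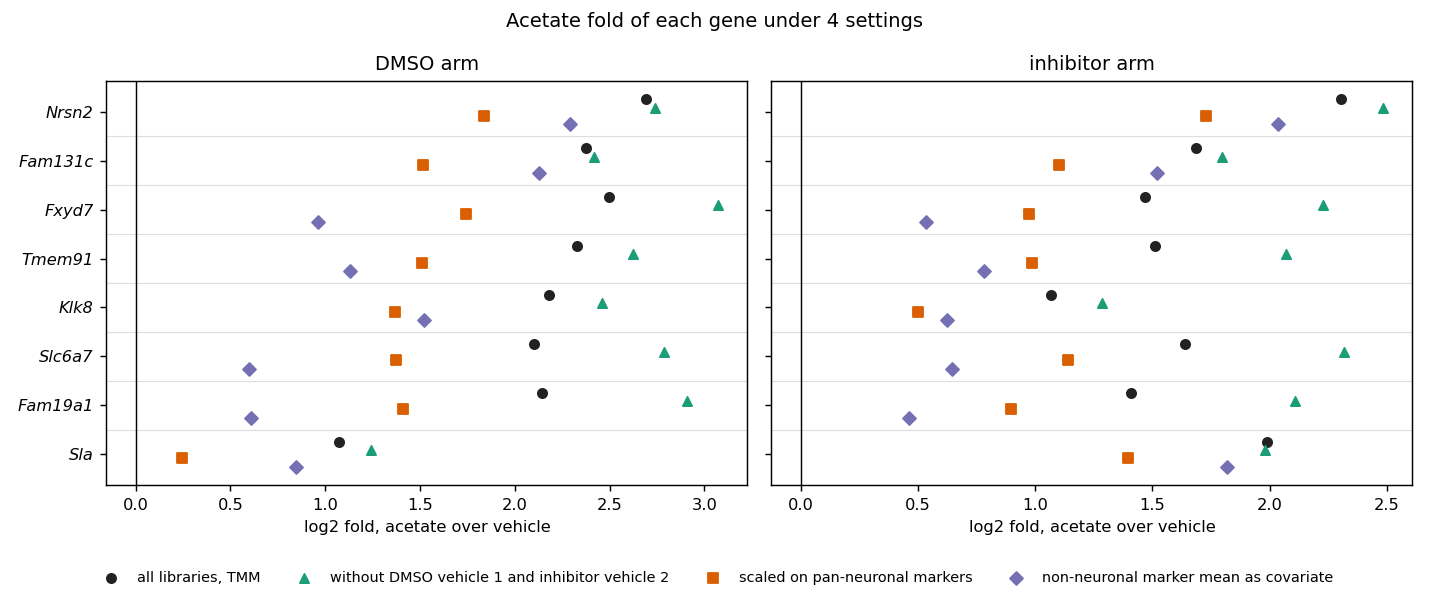
Log2 fold of acetate over vehicle for the 8 genes in the DMSO arm (left) and the inhibitor arm (right), as fitted on all libraries, without DMSO vehicle 1 and inhibitor vehicle 2, with scaling on pan-neuronal markers, and with the non-neuronal marker mean as a covariate. All points are above 0, and with the covariate Slc6a7 moves from 2.10 to 0.60 in the DMSO arm while Nrsn2 moves from 2.69 to 2.29.

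The 8 genes differed in how far they followed the non-neuronal markers. Fxyd7, Slc6a7, Fam19a1 and Tmem91 were 1.83 to 3.60 times the mean of the other libraries of the group in DMSO vehicle 1 and inhibitor vehicle 2, and Klk8 was 1.83 and 1.48 times. Nrsn2 was 1.08 and 1.38 times and Fam131c 1.08 and 1.24 times. They kept closer to their groups, though inhibitor vehicle 2 was the highest of its group for both, and Nrsn2 was there near Klk8. Sla, at 1.48 and 0.987 times, followed in DMSO vehicle 1 only. With the non-neuronal marker mean as a covariate in the fit, the DMSO arm fold was 2.29 for Nrsn2 and 2.13 for Fam131c, 1.52 for Klk8, 1.13 for Tmem91, 0.96 for Fxyd7 and 0.85 for Sla, and 0.60 for Slc6a7 and 0.61 for Fam19a1. In the inhibitor arm it was 2.04 for Nrsn2, 1.82 for Sla and 1.52 for Fam131c, and 0.46 to 0.78 for the other 5. All 8 acetate libraries had a lower marker mean than 6 of the 7 vehicle libraries, so in this fit it takes up much of what acetate and vehicle libraries differ in. What the culture's makeup contributes to these folds was not tested.

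**Figure D3:**
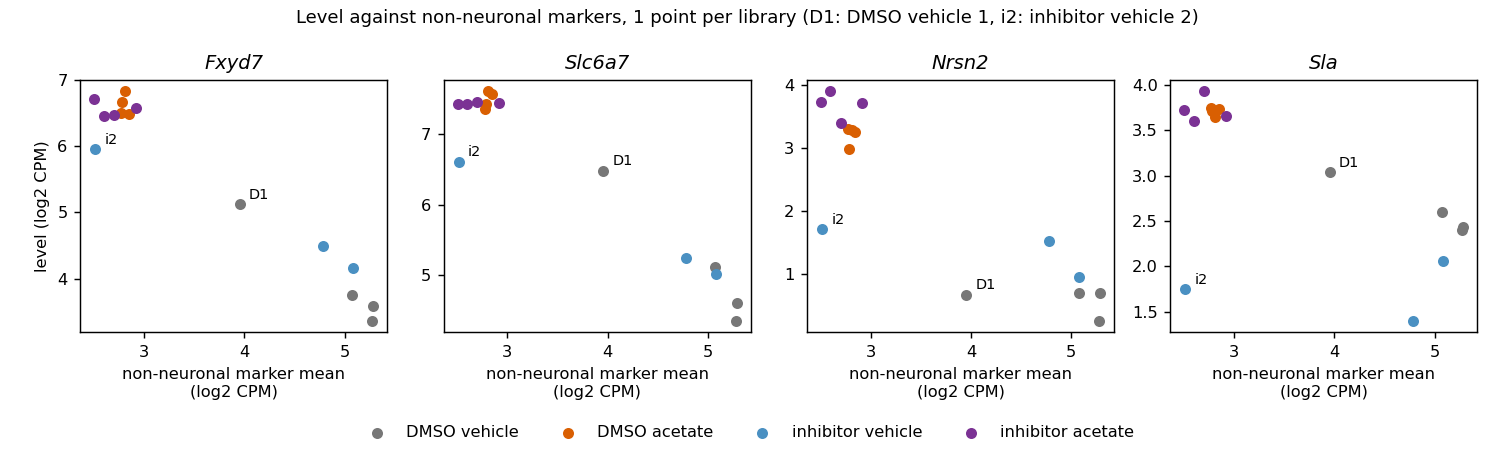
Log2 CPM of Fxyd7, Slc6a7, Nrsn2 and Sla in each of the 15 libraries against the mean log2 CPM of non-neuronal markers in that library, coloured by group. In Fxyd7 and Slc6a7 inhibitor vehicle 2 (i2, marker mean 2.52) and DMSO vehicle 1 (D1, 3.96) lie between the other vehicle libraries and the acetate libraries, while in Nrsn2 both stay at vehicle level and in Sla i2 does.

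Correlations between the genes describe the same differences. Taking each library's deviation from its group mean in log2 CPM over the 15 libraries, r was 0.83 to 0.99 among Fxyd7, Tmem91, Klk8, Slc6a7 and Fam19a1, the highest between Slc6a7 and Fam19a1. Nrsn2 and Fam131c had r = 0.71 with each other and 0.52 to 0.69 with those 5. Sla had -0.31 with Nrsn2, -0.09 with Fam131c and 0.20 to 0.51 with the rest. All these values share the same libraries, and DMSO vehicle 1 and inhibitor vehicle 2 lie farthest from their groups.

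The effect of the inhibitor averaged over vehicle and acetate was not itself used to choose the genes. It is nearly independent of the acetate contrasts only where vehicle and acetate libraries spread alike and are equal in number. Inhibitor vehicle has 3 libraries and the other groups have 4. Each of the 8 genes had the larger coefficient of variation in vehicle. For Sla it was 22.1% and 23.0% in the DMSO and inhibitor arms, against 3.0% and 10.1% with acetate. The choice can therefore shift this average too, and its p-values carry that limit. Low values in DMSO vehicle raise both the DMSO arm fold and this average. Low values in inhibitor vehicle raise the inhibitor arm fold and lower this average. By the averaged test Nrsn2 rose with the inhibitor, by 0.68 (SE 0.13) on the log2 scale (edgeR quasi-likelihood, adjusted p = 0.00487). The inhibitor libraries were above the DMSO libraries in vehicle (2.61 ± 0.69 CPM, n = 3, against 1.42 ± 0.21, n = 4, mean ± SD) and with acetate (12.9 ± 1.8 against 9.15 ± 0.93, n = 4 each), without overlap in either. Sla fell, by 0.44 (SE 0.11, edgeR adjusted p = 0.0265). That average combined 3.31 ± 0.76 CPM (n = 3) against 6.18 ± 1.4 (n = 4) in vehicle with 13.2 ± 1.3 against 13.0 ± 0.39 (n = 4 each) with acetate. The difference of Sla was -0.90 in vehicle and 0.02 with acetate. Its low inhibitor vehicle values also entered the acetate fold of the inhibitor arm, where it ranked 8. The choice could thus push Sla in the direction called, and its fall is not independent of the choice. By this test, under that limit, 1 of the 8 genes rose and 1 fell. Over all 15075 genes 9.99% were called, 5.39% as rises and 4.6% as falls.

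The call of Nrsn2 held in each of the 15 fits that left out a library, at adjusted p = 0.00134 to 0.0124. That of Sla was lost without DMSO acetate 3 (edgeR adjusted p = 0.0525), inhibitor vehicle 1 (0.0692), inhibitor acetate 2 (0.0519) or inhibitor acetate 4 (0.0556), and with scaling on pan-neuronal markers (0.131).

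Fam131c narrowly missed the threshold, at 0.29 (SE 0.09, edgeR adjusted p = 0.0511), and it passed with upper-quartile scaling (0.041), with the DESeq2 Wald test (0.0278), and without DMSO vehicle 1 (0.0451), DMSO vehicle 3 (0.0363), DMSO acetate 2 (0.039), inhibitor vehicle 3 (0.0267) or inhibitor acetate 3 (0.034). Fam19a1 had an averaged difference of 0.72 (SE 0.30, edgeR adjusted p = 0.143), Tmem91 of 0.48 (SE 0.22, 0.182), Fxyd7 of 0.44 (SE 0.27, 0.341), Klk8 of 0.34 (SE 0.15, 0.149) and Slc6a7 of 0.17 (SE 0.29, 0.769). Without DMSO vehicle 1, Fam19a1 (1.10, edgeR adjusted p = 0.00832), Fxyd7 (0.73, 0.0419) and Klk8 (0.48, 0.0133) also passed, so 6 genes were called. Tmem91 passed without inhibitor vehicle 3 (0.65, edgeR adjusted p = 0.0489), and without inhibitor vehicle 2 the value of Slc6a7 was -0.16. Leaving out a single library thus changed the call or the sign for these genes.

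**Figure D4:**
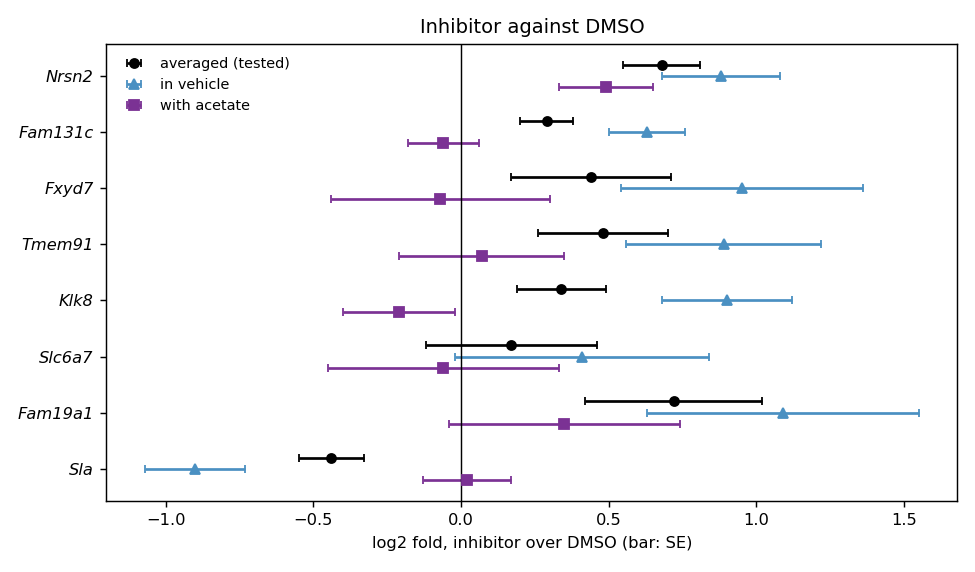
Log2 fold of inhibitor over DMSO for each gene, averaged over vehicle and acetate (tested), in vehicle and with acetate, with bars of 1 SE. In vehicle 7 genes are above 0 and Sla is at -0.90, and with acetate the values run from -0.21 for Klk8 to 0.49 for Nrsn2.

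Split by condition, the inhibitor's difference was mostly in vehicle. It was 0.41 (Slc6a7) to 1.09 (Fam19a1) in vehicle for 7 genes and -0.90 (SE 0.17) for Sla. With acetate it was -0.21 (Klk8) to 0.49 (Nrsn2), with a median of -0.02 over the 8. Libraries did not overlap in vehicle for Nrsn2 and Fam131c, higher with inhibitor, and for Sla, lower, where 9.34% and 7.36% of all genes did the same. With acetate they did not overlap for Nrsn2 and Fam19a1, higher with inhibitor, against 8.96% of all genes. These splits share libraries with the acetate contrasts and are given without a test.

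Acss2, the enzyme the inhibitor targets, was at 25.8 ± 6.6 CPM in DMSO vehicle, 30.6 ± 0.88 in DMSO acetate, 18.1 ± 2.5 in inhibitor vehicle and 25.3 ± 3.6 in inhibitor acetate (mean ± SD, n = 4, 4, 3 and 4). Its RNA fell by 0.39 (SE 0.11) averaged over both conditions (edgeR adjusted p = 0.0361). RNA does not report whether the enzyme was blocked.

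Relatives and partners of the 8 genes, 78 in 12 lists of families, pump subunits, proline enzymes, neurexins and Src-family kinases, did not move as a body with acetate. Of 49 that were tested, 14 rose and 10 fell with acetate in the DMSO arm, and 11 rose and 7 fell in the inhibitor arm (edgeR, adjusted p under 0.05). That is 49% and 36.7% called, close to the 51.2% and 35% of all genes, and the median log2 folds were 0.16 and 0.12. With the inhibitor averaged over conditions 6 rose and 3 fell, 18.4% called, a larger share than the 9.99% of all genes (5.39% rose and 4.6% fell). Scaling on pan-neuronal markers, which lowers the median of all genes to -0.90 and -0.62 in the 2 arms, left 3 and 2 relatives as rises. With the non-neuronal marker mean as a covariate 6 rose and 0 fell in the DMSO arm and 4 rose and 3 fell in the inhibitor arm. Of the 19 relatives named below, 8 then lost their call in the DMSO arm and 3 turned sign. In the inhibitor arm 6 lost their call and 2 turned sign. The falls of Fam131a and Oat in the DMSO arm were among the calls lost, and Slc6a11 and Prodh were called in neither arm. Rises and falls of single relatives below are those of the fit without the covariate, unless stated.

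Nrsn1, the other neurensin, had 23.5 ± 4.1 CPM without and 26.7 ± 1.7 CPM with acetate in the DMSO arm (n = 4 each), and was called in neither arm (0.18, SE 0.13, and 0.26, SE 0.14). Fam131b rose by 0.61 in both arms (SE 0.09 and 0.10, edgeR adjusted p = 0.000143 and 0.00082), although in the DMSO arm it was at -0.26 with scaling on pan-neuronal markers. Fam131a fell, with folds of -0.47 (SE 0.14) and -0.89 (SE 0.15). The Fam131 family thus held a gene that rose, a gene that fell and Fam131c.

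Of 6 tested subunit genes of the sodium-potassium pump, 1 rose and 2 fell in the DMSO arm, and 2 rose and 2 fell in the inhibitor arm. Of the other FXYD genes tested, Fxyd2 (0.88, SE 0.22) and Fxyd6 (0.26, SE 0.09) rose in the DMSO arm and 0 of 4 were called in the inhibitor arm; with scaling on pan-neuronal markers Fxyd6 was at -0.62.

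Among the relatives listed for Tmem91, Prrt2, a presynaptic protein of vesicle release, rose by 1.40 (SE 0.24) and 1.30 (SE 0.26), and kept its direction under each scaling. Its mean in the DMSO arm was 152 ± 70.8 CPM without and 400 ± 38 CPM with acetate (n = 4 each). Syndig1l rose by 0.61 (SE 0.11) in the DMSO arm, was at 0.26 (SE 0.12, edgeR adjusted p = 0.0969) in the inhibitor arm, and was at -0.27 and -0.34 with scaling on pan-neuronal markers.

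Kallikrein genes other than Klk8 were almost silent: 11 of 12 had at most 7 counts in any library. Klk7, next to Klk8, had 0 to 6 counts in DMSO vehicle and 8 to 14 in DMSO acetate, and its rise of 2.28 (SE 0.59, edgeR adjusted p = 0.00514) rests on those. Of the transporters related to Slc6a7, Slc6a11, a GABA transporter of astrocytes, rose by 0.88 (SE 0.19) and 0.56 (SE 0.21), values that came to 0.08 and 0.01 with scaling on pan-neuronal markers. Slc6a15, a neuronal transporter that also takes up proline, rose in the inhibitor arm by 0.49 (SE 0.11) and was at -0.11 with that scaling. In all, 1 of 11 such transporters rose and 3 fell in the DMSO arm, and 2 rose and 2 fell in the inhibitor arm.

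Prodh, the mitochondrial enzyme that starts proline breakdown, fell, with folds of -2.36 (SE 0.54, edgeR adjusted p = 0.00222) and -2.88 (SE 0.58, adjusted p = 0.00255), opposite to the proline transporter. It was at 7.34 CPM in DMSO vehicle 1, against a median of 32.5 CPM over that group, and at 5.42 CPM in inhibitor vehicle 2, against 41.3. Prodh was thus low in the same vehicle libraries as the non-neuronal markers. With the mean of those markers as a covariate its values were 0.63 and -0.47, in a fit where the covariate takes up much of the acetate difference. What the culture's makeup contributes to the fall of Prodh was not tested. Oat, another enzyme of this route, fell by 0.79 (SE 0.18) in the DMSO arm. Other proline enzymes had log2 folds of -0.41 to 0.26.

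Nrxn2, a neurexin and so a presynaptic adhesion protein, rose by 0.79 (SE 0.13) and 0.53 (SE 0.14), and with scaling on pan-neuronal markers it was at -0.04 and -0.06. Fam19a5 rose by 0.23 (SE 0.05) in the DMSO arm and Fam19a2 was at 0.22 (SE 0.10), and both were below 0 with that scaling. Around Sla, the ubiquitin ligases Cbl and Cblb were called in neither arm, Src rose by 0.22 (SE 0.07) and 0.21 (SE 0.07), and Fyn rose by 0.28 (SE 0.07) in the inhibitor arm.

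**Figure D5:**
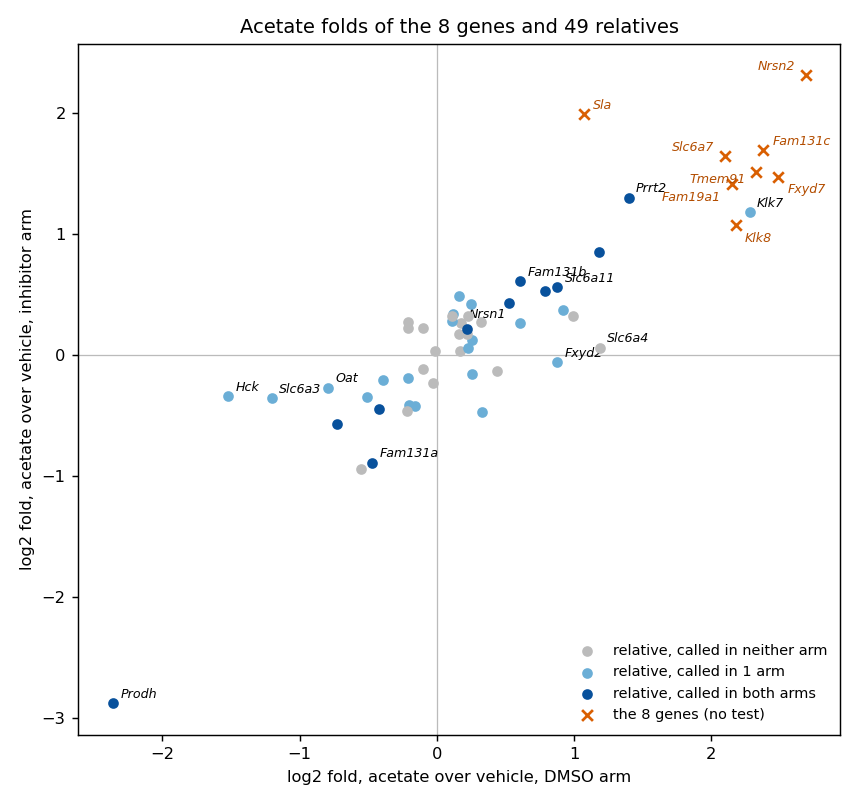
Log2 fold of acetate over vehicle in the DMSO arm (x) and the inhibitor arm (y) for the 8 genes (crosses, no test) and their 49 tested relatives and partners (points, shaded by the number of arms in which edgeR called them). The 8 genes sit apart at the upper right with Klk7, most relatives lie near 0, and Prodh lies at -2.36 and -2.88.

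The genes lie on 6 chromosomes, so they do not form a single cluster (gene models of GENCODE M21 on GRCm38, the mm10 build of the files). Nrsn2 is at chr2:152368755-152376638 on the minus strand and Fam131c at chr4:141368220-141384175 on the plus strand. Chromosome 7 carries Tmem91 (chr7:25669139-25675166, minus), Fxyd7 (chr7:31042513-31051467, minus) and Klk8 (chr7:43797577-43803826, plus). Slc6a7 is at chr18:60995380-61014222 (minus), Fam19a1 at chr6:96113154-96657198 (plus) and Sla at chr15:66780819-66831829 (minus).

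Neighbours on the chromosome mostly had other folds, and those called as rises in both arms lay beside Klk8, Slc6a7 and Nrsn2. The noncoding gene 2310002F09Rik lies on the opposite strand of Klk8 and shares 382 exonic bases with it, and it rose by 1.87 (SE 0.32) and 1.25 (SE 0.35). The library kit marks strand, but the counting's strand setting is not given in the sources used here. Reads of the overlap cannot be assigned with certainty. Fxyd5 and Fxyd1 lie 32 and 211 bases from Fxyd7 and were at -0.21 (SE 0.31) and -0.55 (SE 0.34) in the DMSO arm. Exosc5, which shares 355 exonic bases with Tmem91 on the opposite strand, was at 0.18 (SE 0.09) with acetate in the DMSO arm and fell with acetate in the inhibitor arm (-0.37, SE 0.10). Camk2a, 7228 bases from Slc6a7 and itself a gene of excitatory neurons, rose by 0.82 (SE 0.22) and 0.67 (SE 0.24). Tg, in which Sla lies on the opposite strand with 0 shared exonic bases, had at most 42 counts. Trib3, a stress-response gene 24723 bases from Nrsn2, fell (-1.52, SE 0.24, and -1.91, SE 0.25), while Sox12 on the other side rose by 0.60 (SE 0.07) and 0.31 (SE 0.08). Epha2, 38836 bases from Fam131c, fell (-2.82, SE 0.43, and -2.42, SE 0.46).

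The genes whose log2 CPM most resembled the mean of the 8 over the 15 libraries, among 10815 compared, were Fkbp1b (r = 0.992), Ckmt1, Thy1, Palm3, Rasgrp2, Ydjc, Samd14, Scarb1, Habp4 and Olfm2 (r = 0.985). Thy1 is a surface protein of mature neurons and Ckmt1 a mitochondrial creatine kinase. Their log2 folds with acetate in the DMSO arm were 0.62 (Habp4) to 2.02 (Rasgrp2). By deviations from the group means, these 10 genes had r of 0.838 (Ydjc) to 0.965 (Fkbp1b). The 10 genes most alike by that measure had 0.963 to 0.983, and only Fkbp1b was in both sets. For single genes the nearest were Cpne5 and Prph for Nrsn2, Sema6c and Syt7 for Fam131c, Rab26 and Sertm1 for Fxyd7, and Thy1 and Fkbp1b for Tmem91. They were Bend6 and Matk for Klk8, Stmn2 and Mdga1 for Slc6a7, Arhgef28 and Rasal1 for Fam19a1, and Adcy1 and Lypd6 for Sla. Sla had the weakest likeness over the libraries, at r = 0.951 with Adcy1, where the others had at least 0.986 with their nearest gene. These r include the step from vehicle to acetate on which the 8 genes were chosen. By deviations from the group means, Adcy1 had 0.723 with Sla, Cpne5 0.742 with Nrsn2 and Sema6c 0.833 with Fam131c. The first-named genes of the rest had 0.863 (Bend6) to 0.98 (Stmn2).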

How the data were processed

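RNA-seq was measured in 15 libraries of 4 groups, and groups and replicate numbers come from the labels. The authors deposited whole-number read counts per gene symbol, not normalized. Per the submitters' processing notes, the tools were HTSeq 0.6.1p1, STAR 2.5.2a and DESeq2, and the build was mm10. How HTSeq treated overlaps and strand is not given in the sources used here. Rows that name no gene held 38.92% to 47.43% of a library's counts and were left out. The highest share was that of inhibitor vehicle 2, and the next was 43.14% in DMSO acetate 4. Nothing states that replicates are separate cultures, so p-values measure only the spread between these samples. The 21 within-group pairs of libraries had a chi-square of 4.65 to 144 per gene over genes with at least 20 counts, so none was a copy.

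The model was fitted to the deposited counts by edgeR 4.0.16 (with limma 3.58.1, under R 4.3.3): default expression filter, TMM scaling (factors 0.885 to 1.126), 1 quasi-likelihood fit over all libraries with a mean per group, and Benjamini-Hochberg adjustment over 15075 genes at 0.05. Dividing a log2 fold by the root of its F statistic gave the SE. Log2 CPM used a prior count of 2. The steps were tested on simulated data. The 8 genes and all lists were chosen with earlier results of these data known. Acetate folds of the 8 genes were therefore described and the averaged inhibitor effect tested. Named besides them were up to 2 tested genes per list of relatives with the smallest p in either arm (some are not reported here), the genes next to or overlapping each of the 8, and the genes most correlated with them; Xist, the Y-linked genes, C1qb and the counts of quieter relatives were added after their values were seen. Gene models were those of GENCODE M21, in which 98.3% of the table's genes had a single match. Alternatives were DESeq2 1.42.0 size factors and its Wald test, upper-quartile scaling, scaling on pan-neuronal markers, no filter, only the groups compared, a non-neuronal covariate, a replicate block, and leaving out libraries.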

Additional observations from a re-analysis of the deposited data

Results flagged for a closer look

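In groups of 4 libraries, a library is pointed out here where its gap to the nearest other exceeded 0.829 of the group's range (Dixon's test at the 95% level). This held in 11 of the 81 groups examined and in 4 of the 24 groups of the 8 genes, and chance gives about 1 in 20. Nrsn2 was lowest in DMSO vehicle 2, at 1.11 CPM. Fxyd7 and Klk8 were highest of their group in DMSO vehicle 1, at 34.6 and 6.58 CPM, and Klk8 was highest in DMSO acetate 2, at 23.5 CPM. Of the relatives, Prrt2 (257 CPM), Slc6a11 (258 CPM) and Nrxn2 (1014 CPM) were highest and Prodh (7.34 CPM) lowest in DMSO vehicle 1. Slc6a11 was highest in DMSO acetate 1, at 339 CPM, Nrsn1 in inhibitor acetate 4, at 37.4 CPM, and Klk7 in DMSO acetate 4, at 0.757 CPM. DMSO vehicle 1 was the highest library in 5 and the lowest in 1 of the 11 groups, and it had the lowest non-neuronal marker mean of its group, 3.96 against 5.07 to 5.29.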

How the results depend on the processing

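The acetate folds of all 8 genes stayed above 0 in both arms under every alternative run. Their median was 2.25 and 1.58, and 2.10 to 2.66 and 1.28 to 2.08 when single libraries were left out; without both DMSO vehicle 1 and inhibitor vehicle 2 it was 2.68 and 2.09, with scaling on pan-neuronal markers 1.46 and 1.05, and with the non-neuronal covariate 1.05 and 0.72. Genes of the 8 called for the averaged inhibitor effect numbered 2, and 3 with upper-quartile scaling or the DESeq2 Wald test, 1 with pan-neuronal scaling, 5 without both libraries, and 1 to 6 with single libraries left out. Over all genes that effect called 1506, and 335 with pan-neuronal scaling, 2975 with the covariate and 975 to 1657 with libraries left out. With acetate, all-gene rises and falls in the DMSO arm (3575 and 4139) were 156 and 13050 with pan-neuronal scaling, 1220 and 1006 with the covariate, and 3010 to 3855 and 3547 to 4500 with libraries left out. In the inhibitor arm (2180 and 3103) they were 140 and 10429, 800 and 1040, and 1245 to 2894 and 1877 to 3616, and rises were 3434 without both libraries. Relatives that rose and fell in the DMSO arm (14 and 10) numbered 3 and 38 with pan-neuronal scaling, 6 and 0 with the covariate, and 12 to 17 and 5 to 13 with libraries left out. In the inhibitor arm (11 and 7) they numbered 2 and 25, 4 and 3, and 7 to 14 and 4 to 10, and 13 fell without both libraries. The causes were not tested.

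Scaling on pan-neuronal markers turned the sign of these relatives. In the DMSO arm they were Nrsn1 (-0.71), Fam131b (-0.26), Fxyd6 (-0.62), Syndig1l (-0.27), Slc6a15 (-0.69), Fam19a5 (-0.64), Fam19a2 (-0.62), Nrxn2 (-0.036), Fyn (-0.76) and Src (-0.66). In the inhibitor arm they were Nrsn1 (-0.31), Fxyd6 (-0.49), Syndig1l (-0.34), Slc6a15 (-0.11), Fam19a5 (-0.54), Fam19a2 (-0.43), Nrxn2 (-0.058), Cblb (-0.39), Cbl (-0.26), Fyn (-0.31) and Src (-0.40). The covariate turned Prodh (0.63), Cblb (0.11) and Fyn (-0.027) in the DMSO arm, Oat (0.24) and Cbl (-0.21) in the inhibitor arm, and the averaged inhibitor value of Slc6a7 (-0.18). Leaving out inhibitor vehicle 2 turned the averaged value of Slc6a7 (range over single libraries left out -0.16 to 0.52). In the inhibitor arm it turned Fxyd2 (range -0.33 to 0.25, and 0.25 without DMSO vehicle 1 as well), as leaving out inhibitor acetate 3 did, and leaving out inhibitor vehicle 3 turned Oat (range -0.49 to 0.052).

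Replicate numbers did not pair the samples: over 21 pairs of libraries with the same number, deviations from the group means correlated at -0.63 to 0.41, with a median of -0.07, and 7 pairs above 0.1. With the replicate number as a block, 1188 genes were called for the averaged inhibitor effect, and Nrsn2 (0.68, edgeR adjusted p = 0.0145) and Sla (-0.46, edgeR adjusted p = 0.0366) remained the called genes of the 8. Depth limits Klk7, which had at most 14 counts in any library.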
